A study of Rattus norvegicus with 6 samples.

Results

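The 10 genes described here encode the chaperones and proteases that keep proteins folded, or remove them, inside mitochondria. They are Hspa9, Hspd1, Hspe1, Trap1, Lonp1, Clpp, Clpx, Htra2, Afg3l2 and Spg7, chosen by name as genes of the mitochondrial unfolded protein response. All 10 were among the 21026 gene symbols of the count table, and all 10 passed the filter on low counts. Polyadenylated RNA was sequenced from mesenchymal stem cells of rat (Rattus norvegicus) bone marrow, stromal cells that grow attached to plastic and can turn into bone, fat or cartilage cells. The labels put 3 libraries in a young group and 3 in an aged group, call them biological replicates and name no agent for either group. Strain, sex, age in months, passage and number of animals are not stated in the labels. The p-values therefore cover the spread among the 6 libraries only, and part of that spread may be technical. The title of the series concerns mitophagy and bone healing in old age.

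Most mitochondrial proteins are made in the cytosol and enter mitochondria unfolded. Hspa9 (mortalin) pulls them into the matrix, the Hspd1 and Hspe1 chaperonin folds them in a closed chamber, and Trap1 is the HSP90 of mitochondria. Proteins that cannot be folded are degraded by the matrix proteases Lonp1 and ClpXP, by the m-AAA protease of the inner membrane or by Htra2 in the space between the membranes. When unfolded proteins build up in mitochondria, cells can raise chaperone and protease genes through the transcription factors Atf5, Atf4 and Ddit3 (CHOP), a program called the mitochondrial unfolded protein response.

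Totals were 34638874 to 42479626 counts per library, and the 10 genes had between 525 and 24812 counts in each library. Levels are given as CPM, counts scaled to a common total with TMM factors that adjust for library composition. Young replicate 2 stood apart within its group. The chi-square statistic per degree of freedom between 2 libraries of a group was 11.2 and 9.19 for its pairs and 3.13 to 3.64 for all other pairs, where sampling noise alone gives about 1. Of 12 stromal markers, 10 were at 1 CPM or more in every library, and Vcam1 and Lepr were below that in every library. The stromal markers summed to 42632 to 43131 CPM in young and 23252 to 23482 CPM in aged libraries. Most of that sum was Col1a1 and Col1a2. By the test described below, 7 of the 12 were called lower and 3 higher, beside 41.8% and 44.7% of all tested genes. Cxcl12 went from 3259 to 3573 CPM in young to 202 to 204 CPM in aged libraries. Nt5e went from 10.1 to 10.8 CPM in young to 46.7 to 47.7 CPM in aged libraries. Eng was at 169 to 177 CPM in young and 166 to 179 CPM in aged libraries. The leukocyte gene Ptprc had 0 counts in 5 libraries and 1 in the sixth, and the 5 endothelial markers summed to at most 0.678 CPM. Macrophage and blood markers summed to 93.0 to 96.0 CPM in young and 43.4 to 44.2 CPM in aged libraries. Within this list Cd14 was at 79.9 to 81.4 CPM in young and 20.4 to 21.6 CPM in aged libraries, and Csf1r at 0.211 to 0.532 CPM in young and 21.4 to 22.4 CPM in aged libraries. Adipocyte markers summed to 346 to 364 CPM in young libraries, mostly Fabp4, and to 0.413 to 0.718 CPM in aged ones. The part of these marker differences in the changes below was not tested. In bulk RNA, fewer cells of a type and less RNA per cell cannot be told apart.

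The mitochondrial chaperones and proteases did not move as a block. Hspa9, Hspd1, Clpx and Afg3l2 were higher in aged cells, Trap1, Spg7, Htra2 and Clpp were lower, and Hspe1 and Lonp1 were not called. A gene was called at an adjusted p under 0.05 in edgeR's quasi-likelihood test, with Benjamini-Hochberg adjustment over the 14273 genes tested. The 8 of 10 called must be read against a background in which 86.4% of all tested genes were called, 44.7% higher and 41.8% lower. The 4 higher and 4 lower members are close to those shares, so the split is not particular to these genes. A change of at least 2-fold was found for 3 higher and 3 lower members, beside 29.4% and 21% of all tested genes, together 50.4%. The median log2 change of the 10 was -0.04, that of all tested genes 0.05. The choice of scaling matters for the small changes: scaling by library size alone raised log2 changes by a median of 0.34 and gave 7704 higher and 4654 lower genes in place of 6375 and 5964. Under that scaling 6 members were called higher and 3 lower. Hspa9, Hspd1, Clpx and Afg3l2 were called higher, and Trap1, Spg7 and Htra2 lower, under all 4 scalings tried (TMM, upper quartile, DESeq2 size factors and library size alone). Calls in 1 direction under all 4 were made for 43.5% of tested genes upward and 32.6% downward.

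**Figure D1:**
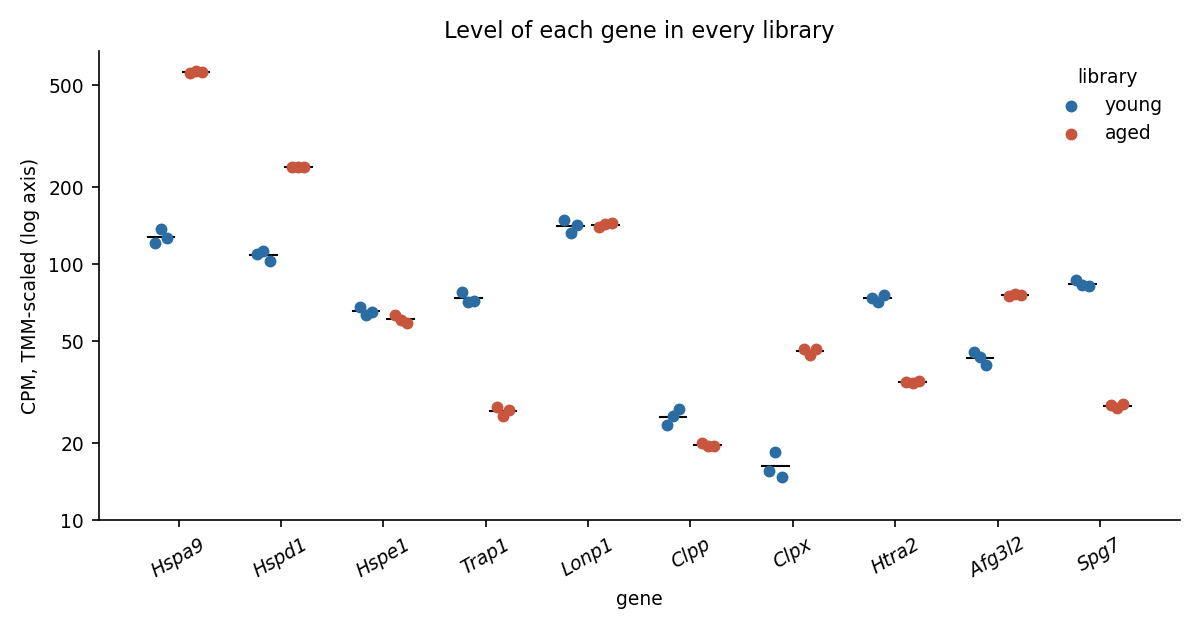
Level of the 10 genes in each of the 6 libraries, as TMM-scaled CPM on a log axis; each point is 1 library (blue young, red aged) and the black bars are group means. The groups overlap for Lonp1 alone, and of all tested genes 87.5% show no overlap. Hspa9 goes from 121 to 137 CPM in young to 559 to 569 CPM in aged libraries.

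**Figure D2:**
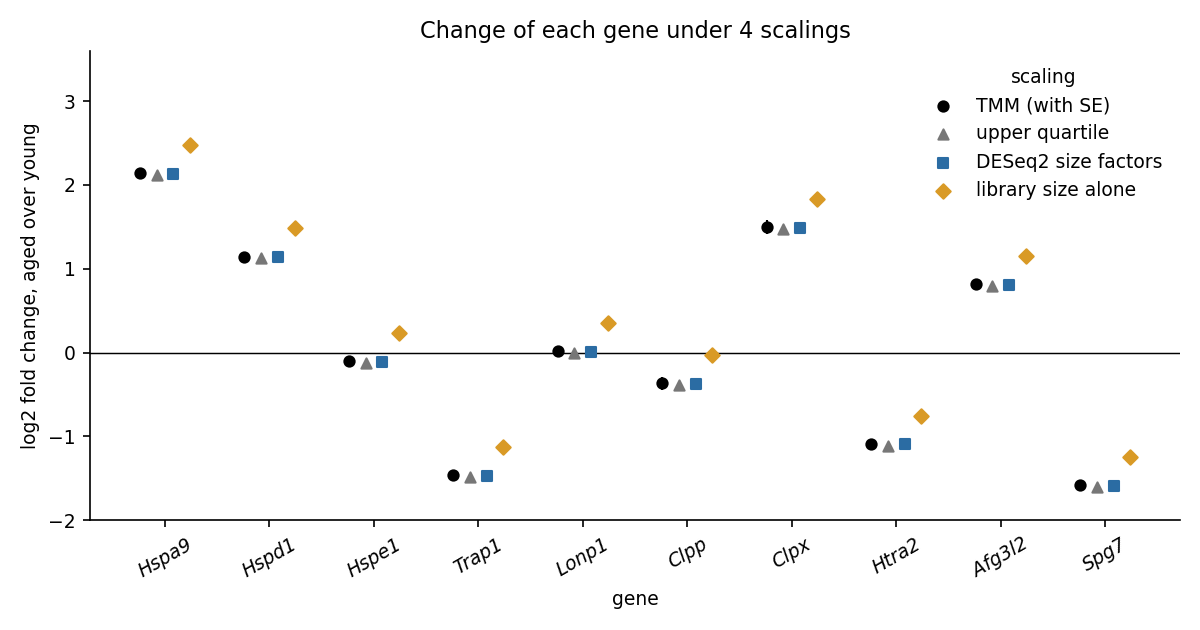
Log2 fold change, aged over young, of the 10 genes under 4 ways of scaling the libraries; bars on the black points are standard errors of the TMM fit. Library size alone lifts every gene, taking Hspe1 from -0.10 to 0.23, Lonp1 from 0.02 to 0.36 and Clpp from -0.37 to -0.03; the other 7 genes are on 1 side of 0 and called under all 4 scalings.

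Among the chaperones, Hspa9, the mitochondrial HSP70, had the largest change of the 10 genes. Its level was 121, 137 and 126 CPM in the young libraries and 559, 569 and 563 CPM in the aged ones. The lowest aged library was far above the highest young one. The rise was 4.4-fold, with a log2 change of 2.14 ± 0.04 (SE; edgeR adjusted p = 8.7e-18). Of all tested genes, 84.6% had a smaller log2 change, so rises of this size were common in these libraries. Without young replicate 2, the highest young library for Hspa9, the log2 change was 2.19.

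Hspd1 encodes HSP60, the barrel of the mitochondrial chaperonin. It measured 110, 113 and 103 CPM in young and 240, 239 and 239 CPM in aged libraries. The groups were well apart and the aged libraries nearly equal. It rose 2.21-fold, a log2 change of 1.15 ± 0.04 (SE; edgeR adjusted p = 1.7e-14). RefSeq names 20 Hspd1 pseudogenes in rat. How reads that match several copies were counted is not stated in the sources used here, so the level of Hspd1 is uncertain to that extent.

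Hspe1 encodes HSP10, the lid that closes the HSP60 barrel. Its young libraries were at 68.2, 63.7 and 65.3 CPM and its aged ones at 63.3, 60.7 and 59.2 CPM. The aged values lay just under the young ones, with a gap smaller than the spread within each group. The log2 change was -0.10 ± 0.05 (SE; edgeR adjusted p = 0.062), and 0.23 (edgeR adjusted p = 3.9e-04) when scaled by library size alone, so no direction is given for Hspe1. It was called lower without young replicate 2 (-0.13, edgeR adjusted p = 0.012), without aged replicate 1 (-0.13, edgeR adjusted p = 0.048) and with upper-quartile scaling (-0.13, edgeR adjusted p = 0.027).

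The barrel and the lid can be set side by side within each library. The ratio of Hspd1 to Hspe1 counts, which does not depend on scaling, was 1.61, 1.77 and 1.58 in young and 3.80, 3.94 and 4.04 in aged libraries. All aged ratios lay above all young ones, 2.38-fold on average, a log2 difference of 1.25 ± 0.06 (SE). With 3 libraries against 3, the two-sided exact permutation test cannot give a p below 0.10, and it gave that value (adjusted over the 8 ratios compared here, exact p = 0.10).

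Hspd1 and Hspe1 lie head to head in the rat genome, which is why their shared start region is shown. Promoter windows, from 250 bases before to 50 bases after a gene's start, came from RefSeq (assembly GRCr8) for 7 of the 10 genes (all but Lonp1, Clpx and Htra2), matched by symbol. The Hspd1 and Hspe1 windows overlap by 211 bases on opposite strands. The Hspe1 window (chr9:64084077-64084376, plus strand), that of Hspa9, which rose (chr18:26828349-26828648, minus strand), and that of Trap1, which fell (chr10:11971009-11971308, plus strand), are given 5′ to 3′, with matches to the searched motifs in capitals.
Hspe1: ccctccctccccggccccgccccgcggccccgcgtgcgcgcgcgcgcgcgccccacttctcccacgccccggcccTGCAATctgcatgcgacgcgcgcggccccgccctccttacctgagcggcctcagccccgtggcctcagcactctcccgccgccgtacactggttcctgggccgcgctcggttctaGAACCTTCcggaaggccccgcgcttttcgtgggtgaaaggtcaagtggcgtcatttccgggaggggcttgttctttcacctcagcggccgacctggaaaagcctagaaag
Hspa9: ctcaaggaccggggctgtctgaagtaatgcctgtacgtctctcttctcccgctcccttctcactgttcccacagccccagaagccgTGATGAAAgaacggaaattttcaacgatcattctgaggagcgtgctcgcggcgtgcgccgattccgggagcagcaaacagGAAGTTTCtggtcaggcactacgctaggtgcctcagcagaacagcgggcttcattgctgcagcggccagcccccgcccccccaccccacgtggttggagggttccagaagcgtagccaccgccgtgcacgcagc
Trap1: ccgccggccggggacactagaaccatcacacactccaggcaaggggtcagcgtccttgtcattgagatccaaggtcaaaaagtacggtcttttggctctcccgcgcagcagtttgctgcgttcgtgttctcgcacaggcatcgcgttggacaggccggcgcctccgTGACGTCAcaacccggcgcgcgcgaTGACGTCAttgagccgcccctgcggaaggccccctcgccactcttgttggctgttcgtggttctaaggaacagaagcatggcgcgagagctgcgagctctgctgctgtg

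The motifs searched were those of 4 known factors or families, looked for on both strands, with N for any base. The C/EBP and CHOP letters TGCAAT occurred once in the shared region, 175 bases before the Hspe1 start and 120 before the Hspd1 start on the other strand, and in 8.37% of all 33469 windows. The heat shock element letters GAANNTTC occurred in the windows of Hspd1, Hspe1, Hspa9, Clpp and Spg7, 5 of 7, and in 8.59% of all windows. The Hspd1 and Hspe1 matches are the same 8 bases. ATF4 letters TGATGNAA occurred 164 bases before the Hspa9 start and in 3.98% of all windows. The cyclic AMP response element TGACGTCA occurred at 84 and 59 bases before the Trap1 start and in 1.83% of all windows. Genes with the heat shock letters were among those that rose, those that fell and those not called. A match describes the letters only.

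Trap1, the HSP90 of mitochondria, went the other way from Hspa9 and Hspd1. It measured 77.9, 71.0 and 72.1 CPM in young and 27.6, 25.5 and 27.1 CPM in aged libraries. The groups did not overlap. It fell 2.76-fold, a log2 change of -1.46 ± 0.06 (SE; edgeR adjusted p = 1.1e-13). Of all tested genes, 12.5% had a more negative change.

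The matrix proteases showed 3 different patterns. Lonp1, which degrades damaged matrix proteins, was at 148, 132 and 142 CPM in young and 140, 144 and 146 CPM in aged libraries. These ranges overlapped fully, and the log2 change of 0.02 ± 0.04 (SE) was not called (edgeR adjusted p = 0.68). It was -0.0030 with upper-quartile scaling, -0.029 without young replicate 2 and 0.36 (edgeR adjusted p = 1.1e-06) with library size alone, so no direction is given for Lonp1.

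Clpx is the ATP-driven unfoldase that feeds proteins into the Clpp peptidase chamber. Clpx went from 15.6, 18.5 and 14.7 CPM in young to 46.9, 44.4 and 46.7 CPM in aged libraries. Every aged library was above every young one, with young replicate 2 the highest of its group. The rise was 2.82-fold, a log2 change of 1.50 ± 0.08 (SE; edgeR adjusted p = 5.2e-12), and 1.60 without young replicate 2. Clpp was at 23.5, 25.5 and 27.2 CPM in young and 20.1, 19.4 and 19.5 CPM in aged libraries. The aged values were lower without overlap, and Clpp fell 1.29-fold (log2 change -0.37 ± 0.07, SE; edgeR adjusted p = 2.0e-04). That call was lost with library size alone (-0.03, edgeR adjusted p = 0.70). The ratio of Clpx to Clpp counts was 0.666, 0.726 and 0.540 in young and 2.34, 2.28 and 2.39 in aged libraries. It was 3.66-fold higher in aged cells, a log2 difference of 1.87 ± 0.13 (SE; two-sided exact permutation p = 0.10, the smallest possible).

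Htra2 is a serine protease of the intermembrane space that can also be released to promote cell death. It measured 73.8, 71.2 and 76.2 CPM in young and 34.6, 34.4 and 35.1 CPM in aged libraries. The groups were far apart and the aged libraries nearly equal. It fell 2.13-fold, a log2 change of -1.09 ± 0.05 (SE; edgeR adjusted p = 1.4e-12), and -0.75 by library size alone. RefSeq places Loxl3, a lysyl oxidase gene, so that it overlaps Htra2. Loxl3 had 7610 to 7912 counts in young and 3053 to 3408 in aged libraries against 2665 to 2723 and 1368 to 1499 for Htra2. The labels do not state whether counting used strand, and reads of overlapping genes cannot be told apart without it.

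The m-AAA protease of the inner membrane is built from Afg3l2, alone or together with Spg7 (paraplegin). The genes of these subunits moved in opposite directions. Afg3l2 was at 45.5, 43.5 and 40.6 CPM in young and 75.5, 76.3 and 76.0 CPM in aged libraries. All aged libraries were above all young ones, and the rise was 1.76-fold (log2 change 0.81 ± 0.05, SE; edgeR adjusted p = 1.3e-10). Spg7 measured 87.2, 82.7 and 82.5 CPM in young and 28.2, 27.4 and 28.6 CPM in aged libraries. It had the largest fall of the 10 genes, 3-fold (log2 change -1.58 ± 0.05, SE; edgeR adjusted p = 8.4e-15). The ratio of Afg3l2 to Spg7 counts was 0.522, 0.526 and 0.492 in young and 2.67, 2.79 and 2.66 in aged libraries. It was 5.28-fold higher in aged cells, a log2 difference of 2.40 ± 0.04 (SE; two-sided exact permutation p = 0.10, the smallest possible). This was the largest of the 3 ratios between partners within the 10 genes.

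**Figure D3:**
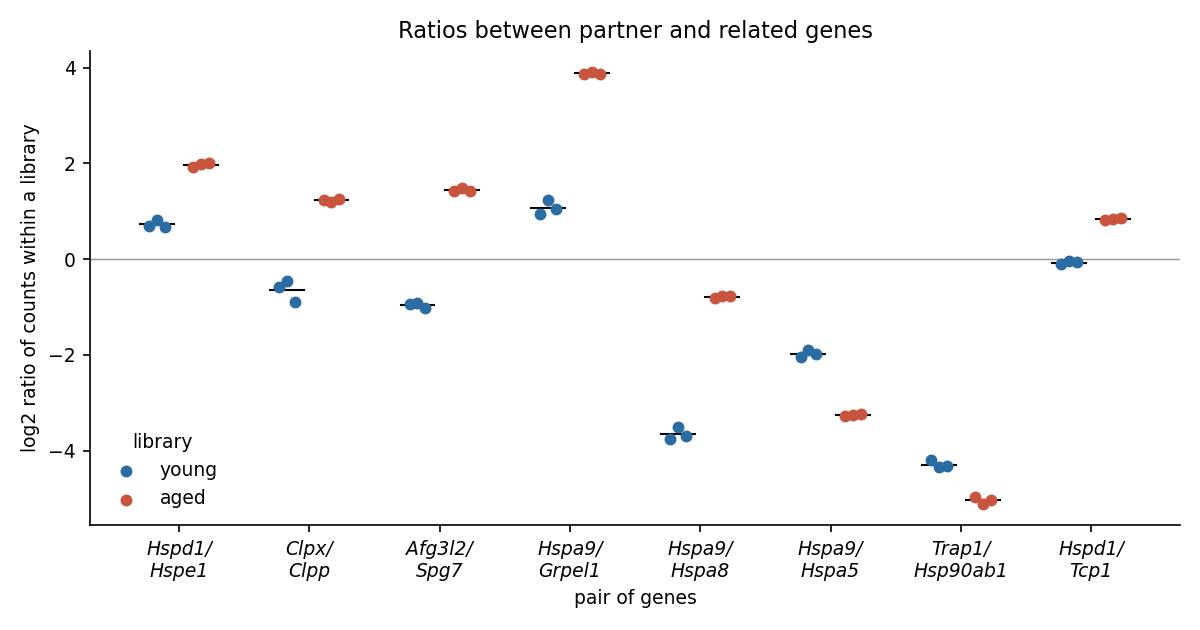
Log2 ratio of the counts of 2 genes within each library, for 8 pairs; each point is 1 library (blue young, red aged), and black bars are group means. The groups do not overlap in any pair, nor do they in the CPM, a different measure, of 87.5% of tested genes. Afg3l2/Spg7 goes from a mean of -0.96 to 1.44, whereas Hspa9/Hspa5 goes down, from -1.98 to -3.26.

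Shares of the 10 genes' summed counts show how their make-up differed between the groups. Hspa9 took 16.9% ± 1.22 of these counts in young and 45.5% ± 0.334 in aged libraries (SD, n = 3 each). Hspd1 went from 14.3% ± 0.549 to 19.4% ± 0.0970. Spg7 went from 11.1% ± 0.216 to 2.27% ± 0.0506, Htra2 from 9.71% ± 0.398 to 2.80% ± 0.0277 and Trap1 from 9.70% ± 0.380 to 2.16% ± 0.0930. The share of each gene also reflects its transcript length, so shares are compared between libraries and not between genes. A share also depends on the other genes, so it can fall without a fall in CPM. Summed over the 10 genes, the level was 760 ± 10.1 CPM in young and 1238 ± 3.02 CPM in aged libraries (SD, n = 3 each). Over the 9 genes other than Hspa9 it was 632 ± 15.8 and 675 ± 3.25 CPM. Most of the higher sum was Hspa9.

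**Figure D4:**
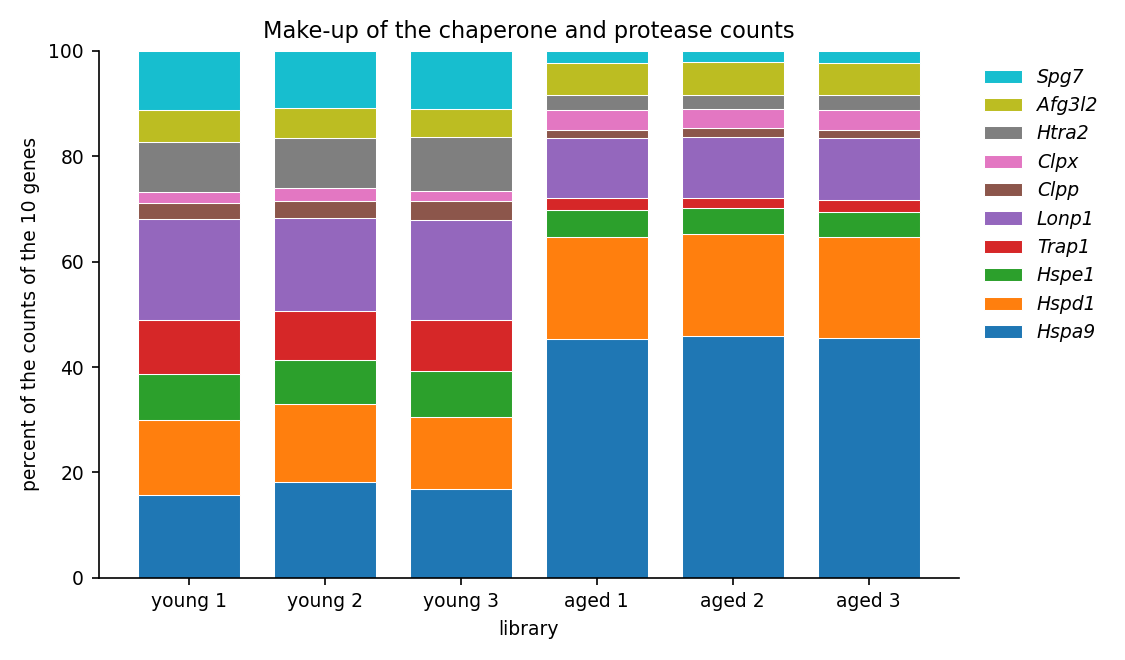
Percent of the summed counts of the 10 genes taken by each gene in each library, stacked to 100%. The Hspa9 segment is 15.7% to 18.1% of the young bars and 45.2% to 45.9% of the aged bars. The Spg7, Htra2 and Trap1 segments shrink, as do those of Lonp1, Hspe1 and Clpp. Because the bars add up to 100%, a segment can shrink without a fall in level. Mean CPM of Lonp1 was 141 in young and 143 in aged libraries.

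Partners of these chaperones changed in both directions. Of 10 co-chaperones and other chaperone partners tested, 7 were called lower and 2 higher, beside 41.8% and 44.7% of all tested genes. The counts were 5 lower and 3 higher by library size alone, beside 4654 lower and 7704 higher of all 14273 tested genes. The median log2 change was -0.57 (-0.24 by library size alone). Grpel1, the nucleotide exchange factor that resets Hspa9, fell from 60.8 ± 2.55 to 38.3 ± 0.246 CPM (SD, n = 3 each), 1.59-fold. Its paralogue Grpel2 rose 1.96-fold, from 12.2 ± 1.14 to 23.8 ± 1.90 CPM. Dnajc19, a J protein of the import motor in which Hspa9 works, fell 2.84-fold, from 29.2 ± 0.659 to 10.3 ± 0.838 CPM. The ratio of Hspa9 to Grpel1 counts was 1.92, 2.37 and 2.05 in young and 14.5, 14.9 and 14.6 in aged libraries. The log2 difference was 2.80 ± 0.09 (SE; two-sided exact permutation p = 0.10). Dnaja3, a J protein that directs Hspa9 to folding, was not called, at 51.1 ± 2.22 and 52.1 ± 0.602 CPM, but was called higher by library size alone (log2 change 0.36, edgeR adjusted p = 7.4e-06).

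Other mitochondrial proteases and peptidases were also divided. Of 14 tested, 5 were called higher and 8 lower, beside 44.7% and 41.8% of all tested genes. Their median log2 change was -0.33. By library size alone 6 were higher and 4 lower, beside 7704 and 4654 of all 14273 tested genes. The median was then 0.0023, so no direction is given for the list. Yme1l1, the i-AAA protease that faces the intermembrane space, was at 27.7, 40.4 and 26.2 CPM in young and 125, 126 and 128 CPM in aged libraries. Young replicate 2 was the highest of its group and still far below the aged libraries, and the rise was 4.01-fold (edgeR adjusted p = 5.0e-12). Oma1, a stress-activated protease of the inner membrane, rose 2.6-fold from 5.64 ± 0.560 to 14.7 ± 1.10 CPM. Xpnpep3, an aminopeptidase that trims imported proteins, rose 4.59-fold from 6.56 ± 1.48 to 30.2 ± 1.54 CPM. Pmpcb, the catalytic subunit of the peptidase that removes import signals, fell 1.57-fold from 71.4 ± 4.12 to 45.4 ± 1.75 CPM.

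Of 6 scaffolds and partners of the m-AAA protease, 4 were called lower and 1 higher, beside 41.8% and 44.7% of all tested genes. By library size alone 2 were called higher and 3 lower, beside 7704 and 4654 of all 14273 tested genes. Phb2, a prohibitin of the ring that surrounds the m-AAA protease, fell 1.36-fold from 164 ± 3.67 to 121 ± 2.73 CPM. Stoml2, a scaffold of the inner membrane, fell 1.83-fold from 43.4 ± 2.24 to 23.7 ± 1.74 CPM. Ghitm, an inner membrane protein, rose 1.66-fold from 264 ± 6.15 to 439 ± 7.35 CPM. Maip1, an m-AAA partner, was not called, at 22.1 ± 0.693 and 20.3 ± 0.751 CPM. Its log2 change of -0.12 became 0.22 by library size alone and was then called (edgeR adjusted p = 0.0093), so no direction is given for Maip1.

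Regulators of the stress program also changed unevenly. Atf5, the transcription factor of the mitochondrial unfolded protein response, was at 258, 255 and 261 CPM in young and 283, 283 and 279 CPM in aged libraries. The groups did not overlap, and the rise was 1.09-fold (edgeR adjusted p = 0.0016). Its log2 change of 0.13 was near the middle of all tested genes, 51.8% of which had a smaller one. By library size alone it was 0.46. Atf4, the central factor of the integrated stress response, rose 1.17-fold from 401 ± 5.46 to 470 ± 6.13 CPM. The log2 change of Atf4 was 0.23, with 54.5% of tested genes smaller, and 0.57 by library size alone. Ddit3, which encodes CHOP, rose 2.71-fold, from 16.3, 16.2 and 14.8 CPM to 42.6, 43.5 and 41.9 CPM (edgeR adjusted p = 1.0e-12). Cebpb, a partner of CHOP, fell 3.75-fold from 561 ± 14.1 to 150 ± 3.19 CPM, and Eif2ak2, the RNA-activated kinase of eIF2, rose 14.6-fold from 3.69 ± 0.695 to 54.2 ± 2.27 CPM. Of 13 regulators, 7 were called higher and 4 lower, beside 44.7% and 41.8% of all tested genes. By library size alone 10 were called higher and 2 lower, beside 7704 and 4654 of all 14273 tested genes. Hsf1, the heat shock transcription factor, was not called at 36.6 ± 1.39 and 39.9 ± 1.54 CPM, but was called higher by library size alone (log2 change 0.46, edgeR adjusted p = 1.7e-06).

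Of 18 targets of the integrated stress response, 11 were called higher and 5 lower, beside 44.7% and 41.8% of all tested genes. Their median log2 change was 0.44, that of all tested genes 0.05. Slc7a11, the cystine transporter, rose 41.2-fold from 1.70 ± 0.298 to 70.3 ± 1.25 CPM. Aldh18a1, a mitochondrial enzyme of proline synthesis, fell 1.84-fold from 93.2 ± 1.09 to 50.8 ± 2.64 CPM. By library size alone 13 of the 18 were higher and 3 lower, beside 7704 and 4654 of all 14273 tested genes.

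Chaperones of other compartments give a measure of how the mitochondrial ones compare. The lists were chosen with earlier results of these data known. In the endoplasmic reticulum all 12 listed chaperones were called higher, beside 44.7% of all tested genes. Their median log2 change was 1.78 and the smallest 0.43. Hspa5 (BiP), the HSP70 of that compartment, went from 499, 516 and 503 CPM to 5387, 5471 and 5299 CPM. It rose 10.6-fold, beside 4.4-fold for Hspa9. The ratio of Hspa9 to Hspa5 counts went from 0.242, 0.266 and 0.251 to 0.104, 0.104 and 0.106. The log2 difference was -1.27 ± 0.04 (SE; two-sided exact permutation p = 0.10). Hsp90b1, the HSP90 there, rose 18-fold from 453 ± 31.2 to 8165 ± 109 CPM, whereas mitochondrial Trap1 fell.

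In the cytosol, 9 of 14 chaperones were called higher and 4 lower, beside 44.7% and 41.8% of all tested genes. By library size alone 11 were called higher and 3 lower, beside 7704 and 4654 of all 14273 tested genes. Hspa8, the constitutive HSP70, fell 1.66-fold from 1613 ± 35.8 to 972 ± 8.22 CPM. Against it, Hspa9 counts went from 0.0742, 0.0874 and 0.0771 of the Hspa8 counts to 0.569, 0.587 and 0.583, a log2 difference of 2.87 ± 0.07 (SE; two-sided exact permutation p = 0.10). The HSP90 genes of the cytosol parted: Hsp90aa1 rose 12.2-fold from 50.8 ± 6.50 to 618 ± 6.30 CPM, and Hsp90ab1 fell 1.64-fold from 1443 ± 9.23 to 878 ± 15.3 CPM. The ratio of Trap1 to Hsp90ab1 counts was lower in aged libraries, by a log2 difference of -0.75 ± 0.06 (SE; two-sided exact permutation p = 0.10). Hspa4l, an HSP110 relative, had 8, 3 and 3 counts in young and 1095, 1219 and 1076 in aged libraries. The fitted change of 209-fold (log2 change 7.71) rests on these few young counts and was 8.32 on the log2 scale without young replicate 1. Dnajb1, a J protein of the heat shock response, fell 1.72-fold from 187 ± 5.80 to 109 ± 5.30 CPM.

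The cytosolic chaperonin, the distant relative of HSP60, had 3 of 8 subunit genes called higher and 4 lower, beside 44.7% and 41.8% of all tested genes. By library size alone 5 were called higher and 2 lower, beside 7704 and 4654 of all 14273 tested genes. Cct8 rose 3.27-fold from 56.1 ± 7.20 to 184 ± 6.03 CPM and Cct5 fell 1.5-fold from 332 ± 5.64 to 221 ± 2.94 CPM. The Tcp1 subunit gene rose 1.18-fold, and the ratio of Hspd1 to Tcp1 counts went from 0.928, 0.965 and 0.960 to 1.76, 1.80 and 1.82. The log2 difference was 0.91 ± 0.02 (SE; two-sided exact permutation p = 0.10). In all 8 ratios the young and aged libraries did not overlap. For single genes, the CPM of 87.5% of tested genes did not overlap either. The share for ratios of other gene pairs was not computed.

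**Figure D5:**
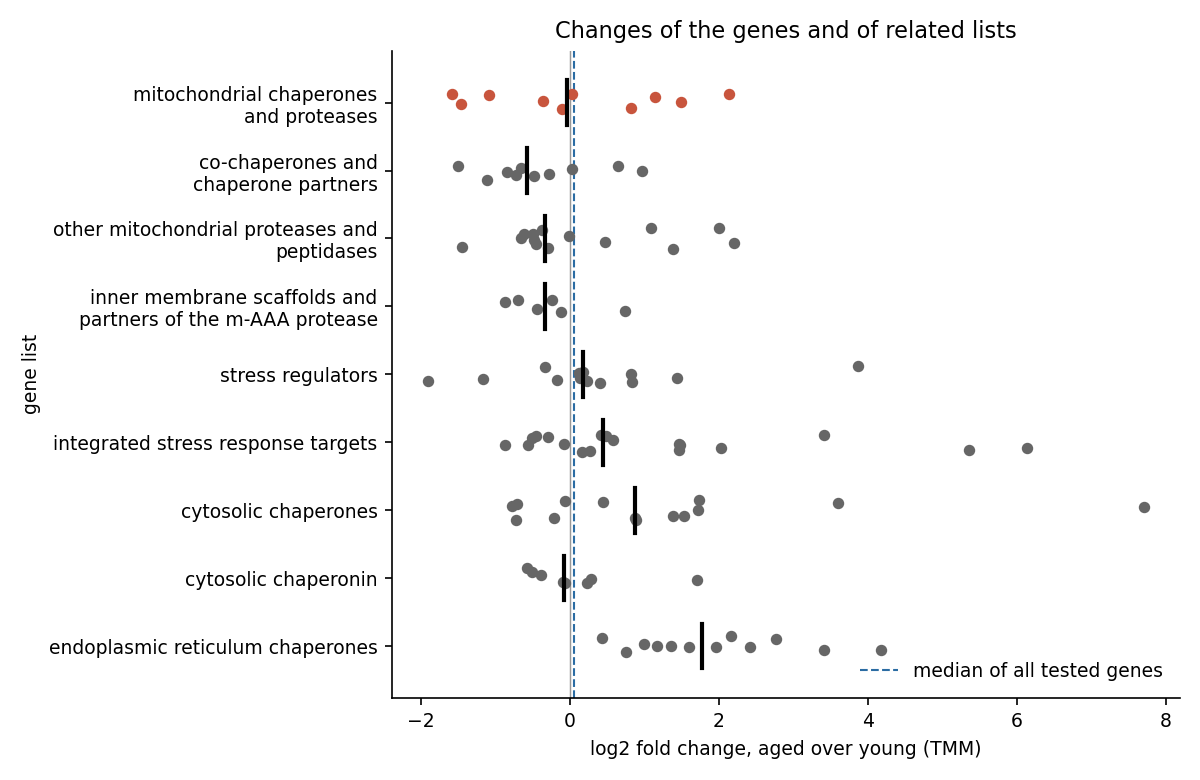
Log2 fold change, aged over young, of the mitochondrial chaperones and proteases (red) and of 8 lists of related genes (grey); each point is 1 gene, black bars are list medians and the dashed line is the median of all tested genes. The 10 genes spread from -1.58 to 2.14 around a median of -0.04, while all 12 endoplasmic reticulum chaperones lie above 0.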

How the data were processed

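The values are raw counts of reads for each gene symbol, which the authors deposited as a single table without normalization; they are whole numbers with a different total in each of the 6 columns. The tools fastp, HISAT2 and HTSeq are named, per the submitters' processing notes; versions, genome build, annotation and strand setting were not stated in those notes. The labels' protocols name TRIzol extraction and a VAHTS Universal V6 library kit. Columns were matched to samples by the library names in the labels.

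Counts were tested with edgeR 4.0.16 (R 4.3.3) on all genes: filterByExpr with a minimum count of 10, TMM scaling and the quasi-likelihood F test with group as the only term, checked on simulated data. CPM uses TMM-scaled totals, and standard errors of fitted changes are the change divided by the square root of F. Ratios are log2 ratios of counts within a library, compared by exact permutation. Members and lists were chosen with earlier results of these data known. Named genes are the members, genes of the 8 ratios, Atf4, Atf5, Ddit3, Yme1l1, Oma1 and Phb2, and per list the largest rise and fall (called, mean CPM of at least 5, no overlap between groups) and the smallest p. List genes that were not called, and Loxl3, were named after their values were seen. Promoter windows and motifs came from RefSeq, GRCr8. DESeq2 1.42.0 and limma 3.58.1 served in alternatives.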

Additional observations from a re-analysis of the deposited data

How the results depend on the processing

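Each member's log2 change was recomputed under 12 alternatives (other scalings, no low-count filter, limma-voom, DESeq2, a replicate block, each library left out), 120 values for the 10 genes. Of these, 112 kept direction and side of the threshold. The exceptions were Hspe1 (0.23 by library size alone; called lower with upper-quartile scaling at -0.13, without young replicate 2 at -0.13 and without aged replicate 1 at -0.13), Lonp1 (0.36 and called by library size alone, -0.0030 with upper-quartile scaling, -0.029 to 0.036 with 1 library left out, negative without young replicate 2) and Clpp (-0.03, not called, by library size alone). All 324 values of the 27 other genes that the naming rule gives kept direction and call. Dnaja3, Maip1 and Hsf1, named as not called, were called higher by library size alone. By library size alone, list counts moved to 4 lower for other proteases, 2 higher for m-AAA partners, 2 lower for stress regulators, 3 lower for stress response targets, and 5 higher and 2 lower for the cytosolic chaperonin. That scaling shifts all genes by construction, and it gave 7704 higher and 4654 lower of all 14273 tested genes. Leaving out 1 library gave 8 to 9 called members, and the Clpx to Clpp difference ran from 1.75 to 1.96.

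The labels use the same replicate numbers in both groups. Deviations of same-numbered libraries from their group means correlated at -0.013 to 0.0098 across genes. With so few libraries, these values cannot decide whether same-numbered libraries were paired. With the replicate block 8 members were called, 4 in each direction, as without it. For the ratios of counts, pairing leaves the mean difference the same by arithmetic. The exact sign-flip test on the paired libraries gave p = 0.25 for each of the 8 ratios, the smallest that 3 pairs allow.

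Each member had at least 525 counts in every library. For the 8 ratios, 3 libraries against 3 set the smallest exact p at 0.10.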
